A study of Mus musculus with 24 samples.

Results

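Hba-a1, Hba-a2, Hbb-bs, Hbb-bt and Alas2 were followed in liver RNA of diet-induced obese (DIO) mice treated with IUB288, an agonist of the glucagon receptor. They were the 5 rows of a table of 22355 genes whose symbol was that of an adult globin gene or of the erythroid form of 5-aminolevulinate synthase, and they were chosen by name. Treatment lasted 4 d, and 3 groups of 8 mice were sampled: IUB288 at 22 h after the last injection, IUB288 at 4 h after it, and vehicle at 22 h after it. Vehicle livers had the same interval as the 22 h livers only, so in the comparison of 4 h with vehicle the drug and the hours since injection, with the time of day, cannot be told apart. All groups were DIO mice without a lean group; strain, age, sex, injected dose and whether blood was flushed from the livers were not stated in the sources at hand.

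Haemoglobin carries oxygen in red cells and is built of alpha and beta chains, each holding haem. Alas2 makes the first intermediate of haem in red cell precursors, whereas its relative Alas1 serves liver and other tissues. The adult mouse liver normally makes few red cells, and the blood within the tissue carries reticulocytes, the youngest circulating red cells, which still hold globin mRNA. In bulk liver, fewer cells of a type and less RNA per cell cannot be told apart.

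The members of each globin pair are near-copies, which limits what their separate counts show. The coding sequences of Hba-a1 and Hba-a2 (GENCODE M21) are 429 bases long and differ at 1 position, C381T, counted from the first base of the start codon with the base of Hba-a1 first. Those of Hbb-bs and Hbb-bt are 444 bases long and differ at C417T, with the base of Hbb-bs first. The 60 coding bases that hold each difference are printed with the differing base in capitals, since they are the only coding stretch by which reads of a pair can be told apart.
Hba-a1, coding bases 351 to 410: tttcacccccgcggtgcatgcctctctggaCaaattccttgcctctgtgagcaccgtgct
Hba-a2, coding bases 351 to 410: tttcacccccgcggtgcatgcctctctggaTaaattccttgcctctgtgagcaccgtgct
Hbb-bs, coding bases 385 to 444: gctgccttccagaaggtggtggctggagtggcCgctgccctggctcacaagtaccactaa
Hbb-bt, coding bases 385 to 444: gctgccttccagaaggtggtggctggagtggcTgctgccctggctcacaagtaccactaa
Of all 50-base windows of the transcripts, 67.5% of those of Hba-a1 occur in Hba-a2 and 86.9% of those of Hba-a2 in Hba-a1. For the beta pair the shares are 65.8% of the windows of Hbb-bs and 58.3% of those of Hbb-bt. How reads that match both copies had been counted is not given in the sources used here, so the sum of each pair is reported beside its members.

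The 250 bases before the start site are shown for 4 genes, as RefSeq gives them on GRCm38.p6. They were looked up after it was seen that the globin genes moved together and Alas2 moved the other way. Whether any motif bears on the direction of change was not tested. The sequences read 5′ to 3′ on the gene's own strand, and capitals mark motif matches on either strand: a GATA motif (AGATAA or its variants TGATAA as well as AGATAG and also TGATAG), the CACCC box, the CCAAT box, and TATAA.
Hba-a1, chr11:32283422-32283671, plus strand: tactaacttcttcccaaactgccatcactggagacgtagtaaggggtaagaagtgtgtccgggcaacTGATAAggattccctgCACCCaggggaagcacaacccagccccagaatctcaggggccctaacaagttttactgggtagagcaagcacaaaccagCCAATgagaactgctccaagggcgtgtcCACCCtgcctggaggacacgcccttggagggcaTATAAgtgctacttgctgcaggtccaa
Hbb-bs, chr7:103827929-103828178, minus strand: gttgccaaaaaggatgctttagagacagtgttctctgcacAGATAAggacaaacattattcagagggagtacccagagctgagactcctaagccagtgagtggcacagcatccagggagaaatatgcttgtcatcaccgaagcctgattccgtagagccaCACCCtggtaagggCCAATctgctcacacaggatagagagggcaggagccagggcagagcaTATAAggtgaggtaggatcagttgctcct
Hbb-bt, chr7:103813924-103814173, minus strand: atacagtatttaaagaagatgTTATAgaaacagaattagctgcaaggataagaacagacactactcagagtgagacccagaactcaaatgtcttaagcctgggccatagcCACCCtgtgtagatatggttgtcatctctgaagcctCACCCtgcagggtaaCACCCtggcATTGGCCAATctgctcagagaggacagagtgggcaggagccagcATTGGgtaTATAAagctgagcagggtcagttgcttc
Alas2, chrX:150547167-150547416, plus strand: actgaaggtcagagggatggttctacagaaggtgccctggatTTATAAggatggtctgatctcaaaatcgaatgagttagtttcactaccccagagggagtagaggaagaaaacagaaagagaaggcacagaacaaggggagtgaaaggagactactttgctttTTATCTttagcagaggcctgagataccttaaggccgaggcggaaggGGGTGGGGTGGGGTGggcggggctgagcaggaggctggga
The window of Hba-a2 (chr11:32296242-32296491, plus strand) is that of Hba-a1 moved by 3 bases, with 247 of 247 overlapping bases identical. CACCC and TATAA were found in the windows of all 5 genes. TATAA lay at -27 to -23 in Hba-a1 and at -29 to -25 in Hbb-bs. In Alas2 it lay only farther from the start, at -207 to -203 and, on the other strand, at -208 to -204. CCAAT was found in the 4 globin windows and not in that of Alas2. The GATA motif was found in the windows of all but Hbb-bt, at -183 to -178 in Hba-a1, -210 to -205 in Hbb-bs and -86 to -81 in Alas2. Of 32851 mouse promoter windows of this length, 52.01% hold CACCC, 22.8% TATAA, 33.8% CCAAT and 26.5% the GATA motif. In Hbb-bt a forward and a reverse CCAAT match abut each other, and in Alas2 the TATAA matches of the 2 strands overlap.

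Libraries held 25.8 to 35.2 M counts at 22 h, 24.7 to 35.2 M at 4 h and 13.99 to 44.1 M in vehicle. Of the 22355 genes 11508 passed the filter on low counts, among them all 5 members. Levels are counts scaled to the library total (CPM), with mean ± SD over the 8 livers of a group. A gene is called where limma-voom gave a Benjamini-Hochberg adjusted p under 0.05 over all genes tested, and log2 fold changes carry their standard error. Vehicle replicate 1 stood apart by 1432 CPM of Ucp1, the uncoupling protein of brown fat, while the other 23 held 0.590 CPM or less. Results for the members without it are within the leave-one-out ranges given with the alternatives.

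Globin transcripts were lower in the livers of both IUB288 groups than in vehicle livers and were lowest at 22 h. The sum of the 4 globin genes averaged 62.6 ± 25.7 CPM at 22 h, 116.9 ± 37.4 CPM at 4 h and 279.7 ± 67.7 CPM in vehicle (SD, n = 8 each). It ran from 31.1 through a median of 55.9 to 105.3 CPM at 22 h, from 75.7 through 102.6 to 177.9 CPM at 4 h, and from 171.8 through 287.2 to 376.2 CPM in vehicle. All 22 h livers lay below every vehicle liver, while at 4 h the 2 highest livers, at 172.1 and 177.9 CPM, reached the lowest vehicle liver. The mean sum at 22 h was 22.4% of that in vehicle, the mean at 4 h was 41.8% of it, and the mean at 22 h was 53.5% of that at 4 h. The comparisons with vehicle share the same 8 vehicle livers, so a chance high or low value there would move both.

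**Figure D1:**
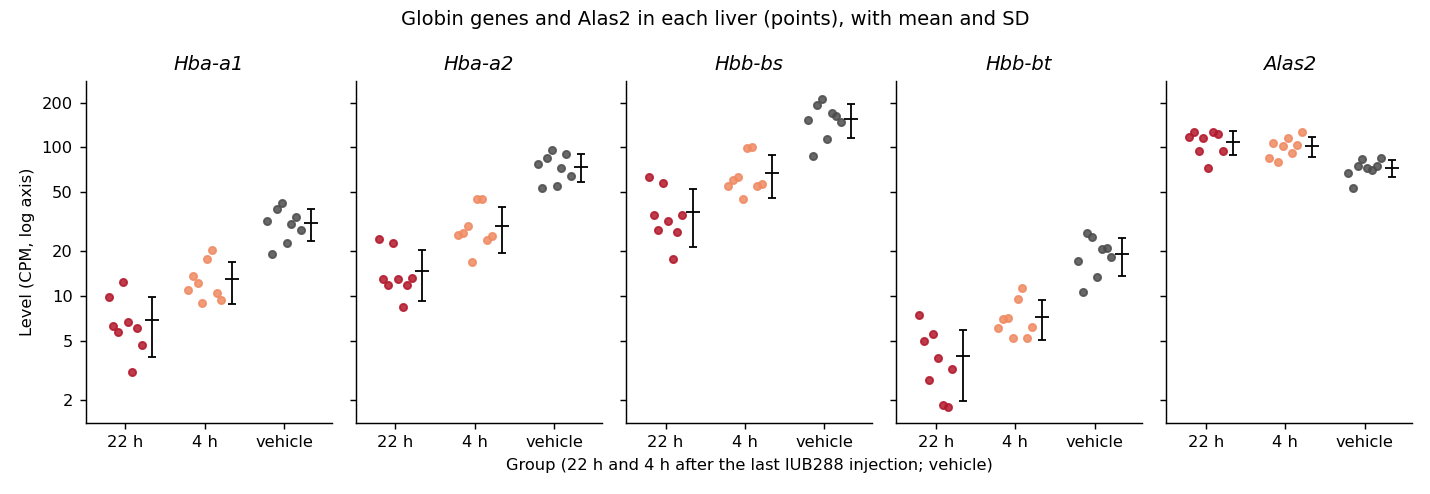
Level of each gene in each liver, in CPM on a log axis, by group; points are livers and bars are the mean and SD over 8 livers. The means of the 4 globin genes share 1 order, with 22 h lowest and vehicle highest, whereas Alas2 lies between 53.4 and 85.3 CPM in vehicle and reaches 127.2 CPM at 22 h.

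Hba-a1 (Entrez 15122, chromosome 11, 32283672 to 32284486 on GRCm38) codes for the alpha chain. It measured 3.07, 6.14 and 12.4 CPM at 22 h as the lowest, median and highest liver, 8.94, 11.6 and 20.3 CPM at 4 h, and 19.3, 31.3 and 42.3 CPM in vehicle. The 22 h livers lay below all vehicle livers, and 1 liver at 4 h reached into the vehicle range. Its log2 fold change was -2.20 ± 0.23 at 22 h against vehicle (limma-voom adjusted p = 6.11e-08) and -1.17 ± 0.19 at 4 h against vehicle (limma-voom adjusted p = 1.88e-05). Between 22 h and 4 h the change was -1.03 ± 0.25 (limma-voom adjusted p = 0.00219).

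Hba-a2 (Entrez 110257, chromosome 11, 32296492 to 32297310) codes for the same chain from the neighbouring copy and had more reads. Its lowest, median and highest livers measured 8.41, 13.04 and 24.3 CPM at 22 h, 16.9, 26.1 and 45.1 CPM at 4 h, and 53.6, 75.4 and 96.4 CPM in vehicle. Neither IUB288 group overlapped with vehicle, and no other globin gene was separated from vehicle in this way at both times. The log2 fold change was -2.35 ± 0.20 at 22 h (limma-voom adjusted p = 3.48e-09) and -1.28 ± 0.18 at 4 h against vehicle (limma-voom adjusted p = 1.91e-06). At 22 h against 4 h it was -1.07 ± 0.21 (limma-voom adjusted p = 0.000369). Fitted as 1 feature, the pair fell by 2.31 ± 0.20 at 22 h (limma-voom adjusted p = 3.93e-09) and by 1.26 ± 0.18 at 4 h on the log2 scale (limma-voom adjusted p = 3.45e-06).

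Hbb-bs (Entrez 100503605, chromosome 7, 103826523 to 103827928) codes for the beta chain that held most of the globin reads. Its lowest, median and highest livers measured 17.8, 33.4 and 63.7 CPM at 22 h, 44.7, 58.6 and 101.2 CPM at 4 h, and 88.2, 157.8 and 212.8 CPM in vehicle. All 22 h livers and 6 of 8 livers at 4 h lay below the lowest vehicle liver. The log2 fold change was -2.11 ± 0.22 at 22 h (limma-voom adjusted p = 6.11e-08), -1.17 ± 0.21 at 4 h (limma-voom adjusted p = 5.47e-05) and -0.94 ± 0.22 at 22 h against 4 h (limma-voom adjusted p = 0.00162).

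Hbb-bt (Entrez 101488143, chromosome 7, 103812524 to 103813923) is the neighbouring beta copy and the lowest member. Its lowest, median and highest livers measured 1.80, 3.51 and 7.49 CPM at 22 h, 5.19, 6.60 and 11.4 CPM at 4 h, and 10.7, 19.5 and 26.5 CPM in vehicle, which is 53 to 240 reads a liver at 22 h. No 22 h liver reached the vehicle range, and 1 liver at 4 h did. The log2 fold change was -2.31 ± 0.26 at 22 h (limma-voom adjusted p = 2.60e-07), -1.29 ± 0.22 at 4 h (limma-voom adjusted p = 3.29e-05) and -1.02 ± 0.29 at 22 h against 4 h (limma-voom adjusted p = 0.00846). The beta pair as 1 feature fell by 2.14 ± 0.22 at 22 h (limma-voom adjusted p = 5.45e-08) and by 1.19 ± 0.21 at 4 h (limma-voom adjusted p = 5.06e-05).

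All 4 globin genes were thus called lower at 22 h against vehicle, where 19.2% of all genes tested were called lower, and none of the 4 overlapped with vehicle, as was so for 3.41% of all genes in that direction. At 4 h all 4 were called lower, against 22.5% of all genes, and 1 of 4, Hba-a2, did not overlap with vehicle, against 6.93%. At 22 h against 4 h all 4 were called lower, against 15% of all genes, and none was free of overlap, against 4.52%. The median log2 fold change of all genes was -0.02 at 22 h, -0.07 at 4 h and -0.02 between the times. The near-copies share sequence and can share reads, so the 4 genes are not 4 separate measurements.

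**Figure D2:**
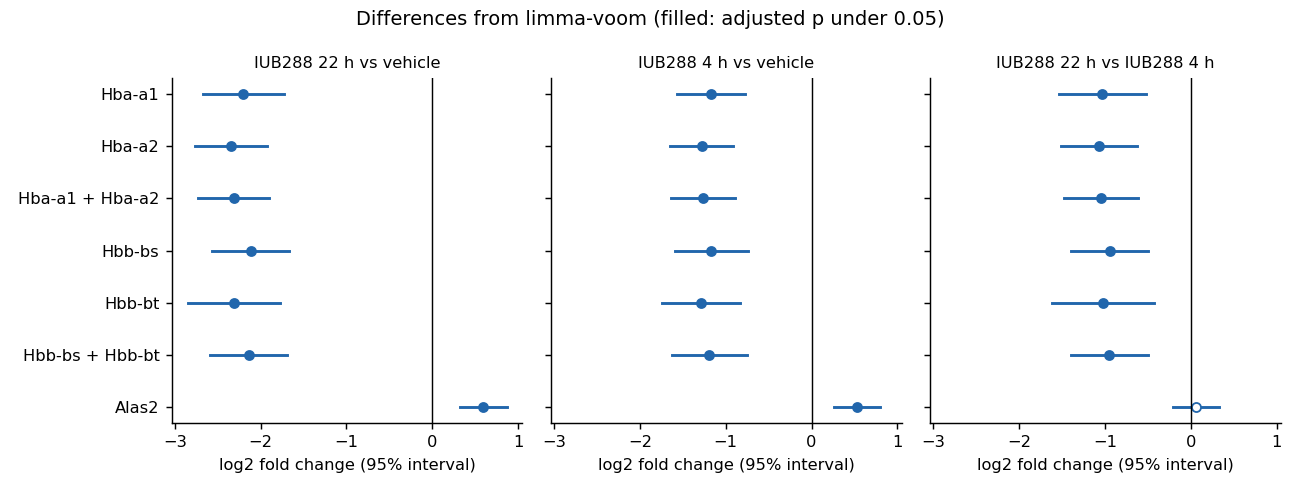
Log2 fold changes with 95% intervals for each gene and for the summed pairs in 3 comparisons; filled points have an adjusted p under 0.05. Globin values lie between -2.35 and -2.11 at 22 h and between -1.29 and -1.17 at 4 h against vehicle, while Alas2 lies above 0 in both and has an open point at 22 h against 4 h.

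Alas2 (Entrez 11656, chromosome X, 150547417 to 150570622), which starts haem synthesis in red cell precursors, went the opposite way. Its lowest, median and highest livers measured 73.1, 117.2 and 127.2 CPM at 22 h, 79.6, 103.3 and 126.9 CPM at 4 h, and 53.4, 73.7 and 85.3 CPM in vehicle. Above the highest vehicle liver lay 7 of 8 livers at 22 h and 6 of 8 at 4 h, so the groups overlapped by few livers. It averaged 109.1 ± 19.6 CPM at 22 h, 101.5 ± 15.7 CPM at 4 h and 72.8 ± 9.97 CPM in vehicle (SD, n = 8 each). The log2 fold change was 0.60 ± 0.13 at 22 h (limma-voom adjusted p = 0.000974) and 0.53 ± 0.13 at 4 h (limma-voom adjusted p = 0.00177), which is 1.51-fold and 1.45-fold higher than in vehicle. Of all genes 17.6% were called higher at 22 h and 21.7% at 4 h, and 3.52% and 7.49% were higher without overlap. Between 22 h and 4 h it differed by 0.06 log2 units with a 95% interval of -0.20 to 0.33 (limma-voom adjusted p = 0.760), so the times were not told apart within those bounds. Between these times 14.3% of all genes were called higher and 4.98% were higher without overlap.

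At 22 h Alas2 reads outnumbered the reads of the 4 globin genes together in all 8 livers. The ratio of Alas2 to globin counts had a median of 1.82 at 22 h (1.12 to 4.09), of 0.938 at 4 h (0.512 to 1.35) and of 0.241 in vehicle (0.220 to 0.355), and no 22 h or 4 h liver overlapped with vehicle. Per kb of transcript, Alas2 stood at 53.5, 49.8 and 35.7 CPM per kb at 22 h, at 4 h and in vehicle. Hbb-bs stood at 58.9, 106.7 and 247.4 CPM per kb in the same order, and Hba-a2 at 26.7, 53.7 and 134.0 CPM per kb. In vehicle livers the order per kb was Hbb-bs, Hba-a2, Hba-a1 (44.3), Alas2 and Hbb-bt (27.2), with Hba-a1 and Alas2 apart by less than the SD of Hba-a1 (10.9). At 22 h the means of Hbb-bs and Alas2 differed by less than their spread (SD 24.97 and 9.61 CPM per kb).

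**Figure D3:**
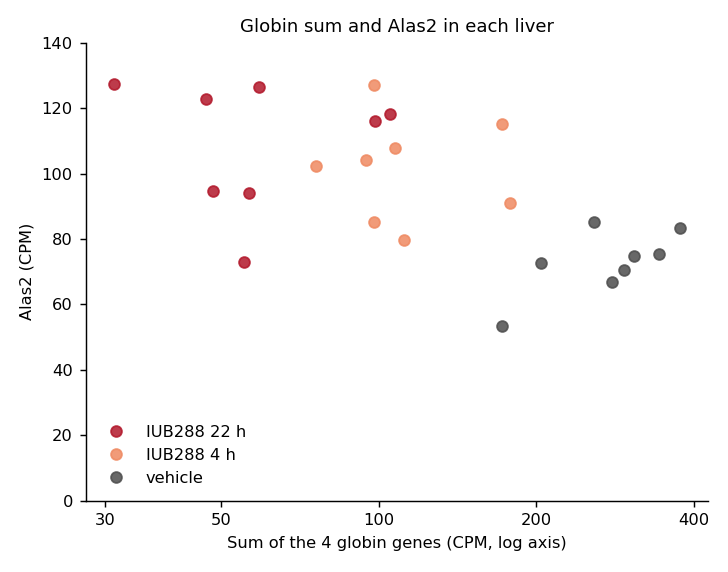
Sum of the 4 globin genes (CPM, log axis) against Alas2 (CPM) in each of 24 livers, coloured by group. The vehicle livers lie at the lower right with 171.8 CPM of globin or more, and the 22 h livers at the left with 105.3 CPM or less.

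Within a group, alpha and beta reads went together from liver to liver, whereas no relation of Alas2 with the globin sum was called. Pearson's r of alpha with beta sums was 0.97 at 22 h (rho 0.90, exact permutation p = 0.00136 and 0.00456), 0.99 at 4 h (rho 0.98, exact permutation p = 7.44e-05 and 0.000397) and 0.94 in vehicle (rho 0.88, exact permutation p = 0.000372 and 0.00724). Adjusted over the 9 relations examined, the exact permutation p of r was 0.00409 at 22 h, 0.00067 at 4 h and 0.00167 in vehicle. Without the 2 livers farthest from the median r was 0.89, 0.95 and 0.87. For the globin sum and Alas2, r was -0.01 at 22 h, -0.11 at 4 h and 0.74 in vehicle (rho -0.17, 0.00 and 0.62). The vehicle value had an exact permutation p of 0.0382, adjusted to 0.0860 over the 9, and fell to 0.36 without the 2 farthest livers. For the globin sum and the summed neutrophil markers r was 0.64, 0.14 and -0.12 (rho 0.48, 0.17 and -0.76), and the adjusted exact permutation p was at least 0.168 for r and 0.0827 for rho.

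The proportions of the globin genes moved little beside their levels. Beta reads made up 65.04 ± 2.42% of globin reads at 22 h, 63.6 ± 1.19% at 4 h and 62.1 ± 2.58% in vehicle. The beta to alpha ratio was 1.87 ± 0.20, 1.75 ± 0.09 and 1.65 ± 0.17 in that order, with a log2 difference of 0.18 between 22 h and vehicle (2-sided exact permutation p = 0.0354, adjusted p = 0.116 over 9 ratio tests). The ratio of Hbb-bt to Hbb-bs was 0.104 ± 0.023 at 22 h, 0.108 ± 0.009 at 4 h and 0.122 ± 0.008 in vehicle. It was lower at 4 h than in vehicle by a log2 difference of -0.18 (2-sided exact permutation p = 0.00155, adjusted p = 0.0140), and at 22 h the difference of -0.25 missed the threshold after adjustment (2-sided exact permutation p = 0.0387, adjusted p = 0.116). The ratio of Hba-a2 to Hba-a1 was 2.24 ± 0.38, 2.29 ± 0.28 and 2.42 ± 0.20, with no difference called in the exact permutation tests (adjusted p of 0.277 at 22 h and 0.338 at 4 h against vehicle). A split of shared reads between copies enters each within-pair ratio, and its part was not tested.

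Library names carry a running number, 1 to 12 for replicates 1 to 4 of every group and 13 to 24 for replicates 5 to 8; what the number marks is not stated in the sources at hand. The fall against vehicle held in both ranges: the alpha pair differed by -2.11 and -2.51 log2 units at 22 h and by -1.53 and -1.02 at 4 h (limma-voom adjusted p of 0.000457, 2.25e-05, 0.000894 and 0.00267). The difference between 22 h and 4 h did not hold in the first range. There the alpha pair differed by -0.58 (limma-voom adjusted p = 0.221) and the beta pair by -0.43 (limma-voom adjusted p = 0.465), and 0 of 4 globin genes were called by limma-voom, by limma-trend or at an unadjusted p under 0.05, against -1.50 (limma-voom adjusted p = 0.00102) and -1.45 (limma-voom adjusted p = 0.000756) with 4 of 4 called in the second. The globin sum averaged 77.7 ± 28.3 CPM at 22 h, 98.2 ± 16.1 CPM at 4 h and 292.9 ± 90.1 CPM in vehicle for numbers 1 to 12, and 47.4 ± 11.7 CPM, 135.6 ± 45.6 CPM and 266.5 ± 46.2 CPM for numbers 13 to 24 (SD, n = 4 each). Whether the ranges differ was not tested. Alas2 at 22 h and at 4 h against vehicle was higher by 0.71 and 0.51 in the first range (limma-voom adjusted p = 0.0157 and 0.0383), and by 0.49 and 0.53 in the second, where it missed the threshold (limma-voom adjusted p = 0.0803 and 0.0565).

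**Figure D4:**
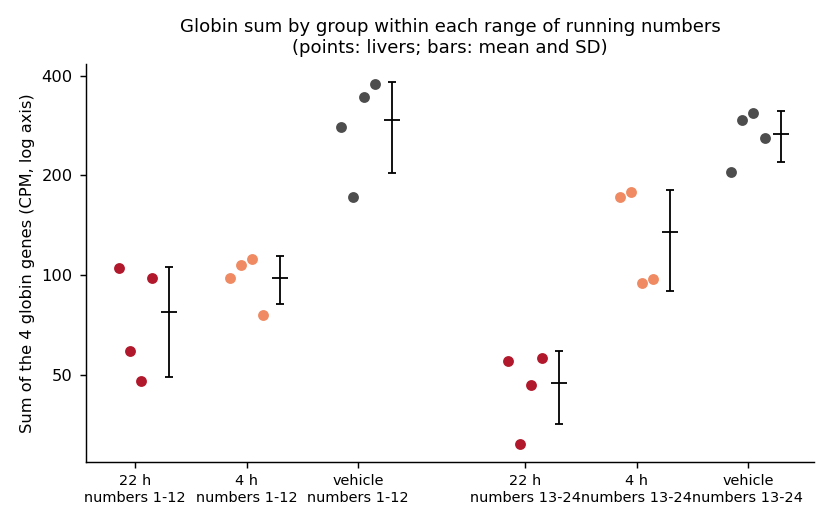
Globin sum (CPM, log axis) in each liver by group, drawn apart for running numbers 1 to 12 and 13 to 24; bars are the mean and SD of 4 livers. In the first range the 22 h and 4 h livers overlap, and in the second the highest 22 h liver, at 56.5 CPM, lies below the lowest 4 h liver, at 94.6 CPM.

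Most other genes of the red cell membrane were at very low levels in these livers. Of 15 genes of the red cell membrane and its skeleton in the table, 9 were below the filter, among them Slc4a1, the anion exchanger band 3. Slc4a1 had 0.041 ± 0.040 CPM at 22 h, 0.163 ± 0.098 CPM at 4 h and 0.676 ± 0.354 CPM in vehicle, with at most 36 reads in a library. Its 22 h livers, at 0 to 0.102 CPM, lay below the vehicle livers, at 0.121 to 1.18 CPM. Other genes below the filter did not share this order: Ermap, a red cell adhesion protein, had 0.173 ± 0.113, 0.107 ± 0.081 and 0.096 ± 0.132 CPM at 22 h, at 4 h and in vehicle, and Tmod1, which caps actin filaments, had 0.159 ± 0.109, 0.099 ± 0.090 and 0.124 ± 0.12 CPM. No test was made on genes below the filter. Of the 6 tested, 0 fell at either time against vehicle by limma-voom, where 3 were lower at 22 h and 1 at 4 h at an unadjusted p under 0.05, and limma-trend called 1 and 0. Limma-voom called 19.2% of all genes lower and 17.6% higher at 22 h, and 22.5% lower and 21.7% higher at 4 h. Without vehicle replicate 1, 1 of 6 fell at 22 h, the skeleton gene Dmtn (-1.05 ± 0.36, limma-voom adjusted p = 0.0252), named after its value was seen. Epb41, which codes for a membrane skeleton protein found also in many other cells, was the 1 called higher, at 312.7 ± 35.4 CPM at 22 h, 466.4 ± 46.9 CPM at 4 h and 183.1 ± 12.02 CPM in vehicle.

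Among 7 late erythroid and reticulocyte genes tested, 1 rose and 2 fell at 22 h and 2 rose and 2 fell at 4 h against vehicle. Of all genes tested, 17.6% were called higher and 19.2% lower at 22 h, and 21.7% higher and 22.5% lower at 4 h, so counts of 1 and 2 of 7 lie near the background. Bpgm, which makes the 2,3-bisphosphoglycerate that tunes oxygen release, fell by 0.42 ± 0.10 at 22 h and by 0.46 ± 0.10 at 4 h (limma-voom adjusted p = 0.00138 and 0.000425). Car1, a carbonic anhydrase of red cells and gut, rose at 22 h and 4 h, by 0.81 ± 0.21 and 0.63 ± 0.21 with limma-voom adjusted p = 0.00359 and 0.0187. The median of the 7 was -0.13 at 22 h and -0.05 at 4 h, beside -0.02 and -0.07 for all genes.

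Gata1, the master regulator of red cell genes, had at most 2 reads in a library and was at 0 in 21 of 24. A count of 0 allows up to 3 counts, which is 0.068 to 0.215 CPM over the libraries, for counting error only. Of 9 erythroid transcription factors and receptors tested, 1 rose and 2 fell at 22 h, and 3 rose and 1 fell at 4 h against vehicle, to be read against the same shares of all genes. Tal1, a factor of blood stem cells, red cell precursors and endothelium, fell by 0.68 ± 0.19 at 22 h and 0.69 ± 0.19 at 4 h (limma-voom adjusted p = 0.00636 and 0.00451). Zfpm1, the partner of GATA factors known as FOG1, rose at 22 h and 4 h, by 0.52 ± 0.11 and 1.33 ± 0.11 with limma-voom adjusted p = 0.00077 and 2.29e-10. Tfrc, the transferrin receptor that takes up iron, rose by 0.62 ± 0.16 at 4 h (limma-voom adjusted p = 0.00243). Epor, the erythropoietin receptor, was called lower at 22 h (-1.29 ± 0.36, limma-voom adjusted p = 0.00676) but averaged under 1 CPM in every group. Klf1, also on this list, was not called at 22 h or at 4 h against vehicle (limma-voom adjusted p = 0.951 and 0.104). Of 8 other globin genes in the table, 7 were below the filter, with Hba-x and Hbb-bh1, which are embryonic, at 0 in all 24 libraries. Hbb-b1, the symbol of the beta-major gene of another haplotype of the beta locus, had 0.067 ± 0.044 CPM at 22 h, 0.193 ± 0.098 CPM at 4 h and 0.265 ± 0.156 CPM in vehicle. Cygb, cytoglobin, a globin of stellate cells and not of red cells, fell by 0.69 ± 0.16 at 22 h and 0.42 ± 0.16 at 4 h (limma-voom adjusted p = 0.00171 and 0.0308), and it was not called at 4 h without vehicle replicate 1.

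The rise of Alas2 was not shared by most genes of haem synthesis. Of 9 tested, 1 rose and 0 fell at 22 h, and 2 rose and 2 fell at 4 h against vehicle. Among all genes, 17.6% were called higher and 19.2% lower at 22 h, and 21.7% higher and 22.5% lower at 4 h. The counts of 2 of 9 at 4 h thus lie near the background. Alas1 had 483.5 ± 192.1 CPM at 22 h, 499.8 ± 158.6 CPM at 4 h and 531.2 ± 88.6 CPM in vehicle, and it was not called at either time (limma-voom adjusted p = 0.529 and 0.779). Fech, ferrochelatase, which inserts iron in the last step, rose by 0.29 ± 0.06 at 22 h and 0.27 ± 0.06 at 4 h (limma-voom adjusted p = 0.00101 and 0.00122). Ppox and Cpox, which act just before it, fell at 4 h by 0.49 ± 0.09 and 0.48 ± 0.11 (limma-voom adjusted p = 0.000125 and 0.00072). Both were higher at 22 h than at 4 h, by 0.45 ± 0.09 and 0.36 ± 0.11 (limma-voom adjusted p = 0.000535 and 0.0117).

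Among 10 tested genes of haemoglobin, haem and iron clearance, 4 rose and 2 fell at 22 h, and 4 rose and 2 fell at 4 h. For all genes, 17.6% and 21.7% were called higher and 19.2% and 22.5% lower at 22 h and 4 h. The ferritin gene Ftl1 rose by 0.36 ± 0.08 at 22 h and 0.49 ± 0.08 at 4 h (limma-voom adjusted p = 0.00177 and 3.31e-05). Fth1, also a ferritin gene, rose by 0.17 ± 0.06 at 22 h (limma-voom adjusted p = 0.0261). Hpx, hemopexin, the plasma carrier of haem, rose by 0.83 ± 0.10 at 22 h and by 0.83 ± 0.10 at 4 h (limma-voom adjusted p = 1.10e-06 and 4.46e-07). Hp, haptoglobin, which binds free haemoglobin, rose by 0.43 ± 0.08 at 22 h and by 0.32 ± 0.08 at 4 h (limma-voom adjusted p = 0.000376 and 0.00317). Hmox1, the haem oxygenase that opens the haem ring, rose by 0.75 ± 0.19 at 4 h (limma-voom adjusted p = 0.00239) and was 0.73 ± 0.19 lower at 22 h than at 4 h (-0.73, limma-voom adjusted p = 0.00432). Blvrb, a biliverdin reductase that is abundant in red cells, fell by 0.43 ± 0.10 and 0.57 ± 0.10 at 22 h and 4 h (limma-voom adjusted p = 0.00196 and 6.82e-05).

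Of 10 tested genes by which liver affects red cell production and iron, 0 rose and 3 fell at 22 h, and 3 rose and 1 fell at 4 h against vehicle. The shares of all genes were 17.6% called higher and 19.2% lower at 22 h, and 21.7% higher and 22.5% lower at 4 h. Egln3, an oxygen-sensing prolyl hydroxylase, rose by 1.62 ± 0.08 at 4 h (limma-voom adjusted p = 1.50e-13) and was at 25.4 ± 2.52 CPM at 22 h and 25.4 ± 3.30 CPM in vehicle. Epas1, the hypoxia-inducible factor that drives erythropoietin, fell by 0.38 ± 0.08 at 22 h and by 0.88 ± 0.08 at 4 h (limma-voom adjusted p = 0.000929 and 2.83e-09). Kitl, the stem cell factor, fell by 0.94 ± 0.22 at 22 h (limma-voom adjusted p = 0.0021). At 22 h against 4 h 1 of the 10 rose and 3 fell, where 14.3% of all genes were called higher and 15% lower. Epo itself, Hamp and Gypc were not analysed here.

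Markers of endothelial, Kupffer and stellate cells were also lower, and their part in the globin result was not tested. Against vehicle, limma-voom called 19.2% of all genes tested lower and 17.6% higher at 22 h, and 22.5% lower and 21.7% higher at 4 h. Small counts, such as 3 of 10 Kupffer cell genes lower at 4 h, lie near these shares. All 12 endothelial genes tested fell at 22 h and 5 of 12 at 4 h, with a median of -0.86 and -0.41, and the summed level was 167 to 414 CPM at 22 h, 349 to 463 CPM at 4 h and 397 to 706 CPM in vehicle. Of 10 Kupffer cell genes 7 fell at 22 h and 3 at 4 h (median -0.97 and -0.53), with sums of 107 to 542, 279 to 503 and 312 to 1038 CPM. Of 10 stellate cell and fibroblast genes 9 fell at 22 h and 6 at 4 h (median -1.23 and -0.75), with sums of 215 to 690, 385 to 734 and 745 to 1451 CPM. In each of the B cell list and the T and NK cell list 4 of 10 genes tested fell at 22 h and 4 of 10 at 4 h, and among 6 neutrophil genes none was called at either time by limma-voom or limma-trend, with 1 lower at each time at an unadjusted p under 0.05. The summed neutrophil markers ran from 5.33 to 15.1 CPM at 22 h, from 5.00 to 10.7 CPM at 4 h and from 6.72 to 73.2 CPM in vehicle, the highest being vehicle replicate 1. Without that liver the median log2 difference of the 6 neutrophil genes was 0.19 at 22 h and -0.13 at 4 h, against -0.36 and -0.74 with it. Of 3 platelet genes tested, none fell against vehicle and 1 rose at 4 h. Of 11 hepatocyte genes 6 rose and 3 fell at 22 h, and 5 rose and 4 fell at 4 h. Every endothelial, Kupffer and stellate gene in the table had reads in all 24 libraries. Without vehicle replicate 1 the genes that fell at 22 h numbered 12, 7 and 9 in these 3 lists, 3 in the B cell list and 2 in the T and NK cell list, and those that fell at 4 h numbered 4, 3, 7, 2 and 3 in the same order. At 22 h against 4 h, 3 endothelial, 0 Kupffer and 2 stellate genes fell, and 6, 0 and 3 without vehicle replicate 1. With all livers, 15% of all genes were called lower in that comparison.

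**Figure D5:**
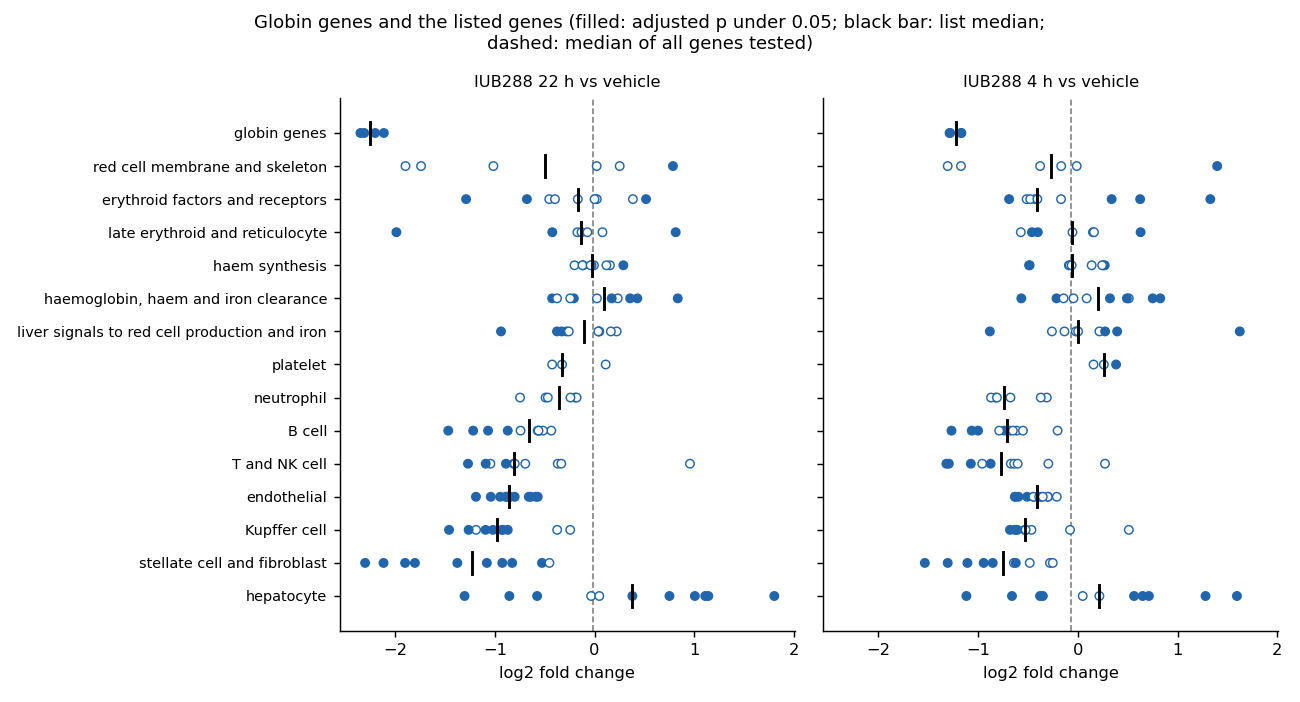
Log2 fold changes at 22 h and at 4 h against vehicle for the 4 globin genes and for the tested genes of 14 lists; each point is a gene, filled where the adjusted p is under 0.05, the black bar is the list's median and the dashed line the median of all genes. The globin genes lie at or below -2.11 at 22 h, beside list medians of -0.86 to -1.23 for endothelial, Kupffer and stellate cells and of -0.50 to 0.10 for the 6 red cell, haem and iron lists.

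Apart from the globins, no gene followed the globin sum within groups as closely as the alpha and beta pairs followed each other. With each value taken relative to its group mean over 24 livers, Pearson's r of the alpha with the beta pair was 0.96. Among 8948 other tested genes with at least 1 CPM the 8 highest were Klhl8 (0.71), Pltp (0.70), Rock2 (0.68), Fbxl5 (0.66), Ugt1a5 (0.66), Specc1 (0.64), Sptan1 (0.64) and Gas2l3 (0.64), and the median of all was -0.0018. Alas2 had 0.15. These livers share library depth and preparation, and the list is a description without a test. With library totals alone as scaling 5 of the 8 were among the highest 8.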

How the data were processed

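Polyadenylated RNA of 24 frozen livers had been sequenced from KAPA mRNA HyperPrep libraries. The authors trimmed reads with cutadapt and aligned them to GRCm38 with GSNAP, per the submitters' processing notes; tool versions, the counter and strandedness are not given in the sources used here. The deposited table held whole-number counts per Entrez gene. Every column was matched to a liver by the name in its sample label, and 0 columns were left unmatched. The filter asked for a count of about 10 in the number of livers of a group and for 15 in all; 11508 genes passed, which held 99.9% of counts. Scaling was by TMM, coded in R 4.3.3, and limma-voom (limma 3.58.1) fitted 1 model of 3 groups with 21 residual degrees of freedom. The edgeR test planned, and DESeq2, were not run, because a unit check did not accept the layout of the table as counts; limma-voom took their place. The pair sums were fitted in a table in which they replaced their members (11506 genes). The fit was tested on simulated data with known changes. The members and lists were chosen with earlier results of these data known. Named list genes were up to 4 per comparison by p, above 1 CPM in a group, and any other was chosen after its values were seen. Mice are the replicates; per the labels' design text they were separate animals. Same-numbered livers did not deviate together (r -0.22 to 0.13 over 24 pairs), so the numbers were not used as pairs. Alternatives were library totals alone, no filter, limma-trend, only the compared groups, a replicate block, each range of running numbers alone, and leaving out each liver.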

Additional observations from a re-analysis of the deposited data

Results flagged for a closer look

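The change against vehicle differed between the times after injection for each globin gene, as tested by the comparison of 22 h with 4 h livers, which needs no vehicle liver. The difference (22 h minus 4 h, log2) was -1.03 for Hba-a1, -1.07 for Hba-a2, -0.94 for Hbb-bs and -1.02 for Hbb-bt, with 8, 8, 8 and 7 of 8 livers at 22 h below the 4 h mean. It was -1.05 for the alpha pair and -0.95 for the beta pair, with 8 of 8 livers each. The limma-voom adjusted p ran from 0.000322 to 0.00846 over these 6 results. None of them was called among livers with running numbers 1 to 12 alone, and all 6 were among numbers 13 to 24; whether the ranges differ was not tested. No liver stood apart from the other 7 of its group by Dixon's test in any of 33 sets of values examined.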

How the results depend on the processing

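Of 1115 values computed for 37 results under alternatives, 1099 were rated the same. Those values kept their side of the threshold or, for counts of genes, stayed near the main count. None changed sign with a call, while a change of sign without a call was rated the same. Alas2 at 22 h against 4 h, for example, ran from -0.05 to 0.21 and was never called. The 4 globin genes were called lower against vehicle at both times under every alternative run. At 22 h against 4 h the count of globin genes called lower was 0 of 4 with numbers 1 to 12 alone, where the alpha pair was at -0.58 and the beta pair at -0.43 (limma-voom adjusted p = 0.221 and 0.465). Alas2 missed the threshold with numbers 13 to 24 alone, at 0.49 at 22 h and 0.53 at 4 h (limma-voom adjusted p = 0.0803 and 0.0565). Each range holds 4 livers a group. The genes called at 22 h, at 4 h and at 22 h against 4 h numbered 1229, 2908 and 1473 in numbers 1 to 12 and 3240, 3166 and 2514 in numbers 13 to 24, against 4237, 5091 and 3367 with all livers, and in numbers 13 to 24 all 4 globin genes were called lower at 22 h against 4 h. The cause of the difference between the ranges was not tested. Leaving out each liver in turn, the alpha pair ran from -2.42 to -2.21 at 22 h, from -1.35 to -1.18 at 4 h and from -1.16 to -0.94 between the times. Alas2 ran from 0.52 to 0.69 at 22 h, from 0.46 to 0.58 at 4 h and from 0.02 to 0.15 between the times. In the same order of comparisons, Hba-a1 ran from -2.33 to -2.06, -1.27 to -1.09 and -1.16 to -0.89. Hba-a2 ran from -2.46 to -2.26, -1.37 to -1.19 and -1.18 to -0.97. Hbb-bs ran from -2.24 to -1.99, -1.29 to -1.09 and -1.07 to -0.82. Hbb-bt ran from -2.46 to -2.19, -1.41 to -1.21 and -1.18 to -0.90. The Hbb-bt to Hbb-bs ratio at 22 h ran from -0.32 to -0.17 and was called without 22 h replicate 2, with the cause not tested. With a replicate block the alpha pair was at -2.30 at 22 h, -1.27 at 4 h and -1.03 between the times, and the block changed no call of a member; 4 of 24 livers correlated best with their own number. Of the 8 genes most like the globin sum, 5 were shared with library totals alone as scaling and 2 without centring on group means. Hbb-bt, with as few as 53 reads in a 22 h liver, had the widest intervals.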
